A study of Mus musculus with 6 samples.

Results

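Water channels and carbonic anhydrases were followed in retinal RNA from mice whose eyes had been injected with saline or with microbeads, which raise intraocular pressure. The genes were *Aqp1*, *Aqp4*, *Aqp11*, *Car2*, *Car4*, *Car10*, *Car12* and *Car14*, chosen by their symbols in the deposited table of read counts. All 8 were among the 31169 genes of that table, and all 8 were among the 17707 genes that passed a filter on low counts and were tested. The mice were male C57BL/6 animals injected into the anterior chamber at 1 month of age with saline or with microbeads 15 µm in diameter. The sample records give a volume of 1 µl, whereas the authors' methods give a larger volume, injected into both eyes. Whole retina was taken 4 weeks after injection, at 2 months of age. There were 3 saline and 3 microbead libraries of poly(A) RNA. The labels name no transgene or deletion in either group, and they do not say whether the 3 retinas of a group came from separate animals. The p-values therefore measure the spread between these libraries, which may be in part technical.

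Aquaporins are membrane pores that let water cross a cell membrane along an osmotic gradient. *Aqp4* sits in the endfeet of Müller glia and astrocytes, where retinal water movement is tied to potassium uptake. *Aqp1* is known from photoreceptors and some amacrine cells of the retina and from several epithelia of the eye. *Aqp11* belongs to a distant branch of the family and is found in intracellular membranes. Carbonic anhydrases interconvert carbon dioxide and bicarbonate, and thereby buffer the acid made by photoreceptors and move it through Müller glia.

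The pore of an aquaporin is lined by a pair of short loops, each carrying the signature asparagine, proline, alanine. The coding sequences of the pair of water channels whose counts changed are shown around these loops because *Aqp11* differs there from the classical pattern. Each line reads 5′ to 3′ along the gene's own strand of the GRCm38 build (transcripts of GENCODE vM21), and capitals mark the codons of the signature.
*Aqp1*, first loop (chr6:55336707-55336733, exon 1, forward strand): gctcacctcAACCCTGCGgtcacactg
*Aqp1*, second loop (chr6:55345828-55345854, exon 3, forward strand): tgcggtatcAACCCTGCCcggtcattt
*Aqp11*, first loop (chr7:97737676-97737702, exon 1, reverse strand): acagctagcAACCCGTGCggcgtgatg
*Aqp11*, second loop (chr7:97729044-97729070, exon 2, reverse strand): gcattgtttAACCCAGCGctggcactt
Both loops of *Aqp1* and the second loop of *Aqp11* encode asparagine, proline and alanine, whereas the first loop of *Aqp11* encodes asparagine, proline and cysteine. The proteins translated from these transcripts were 46.2% identical between *Aqp1* and *Aqp4*, 24.9% between *Aqp1* and *Aqp11*, and 22.7% between *Aqp4* and *Aqp11*.

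An active carbonic anhydrase holds its zinc ion with 3 histidines. The coding sequences around the first and the second of these are shown because they separate the catalytic members from *Car10*, and the capitals mark the codons aligned to those histidines.
*Car2* (chr3:14895060-14895086, exon 3, forward strand): atccagtttCACtttCACtggggctca
*Car4* (chr11:84964158-84964184, exon 4, forward strand): gtacagttgCACctgCACtggtcaaat
*Car12* (chr9:66747638-66747664, exon 4, forward strand): gagcagctgCACttgCACtgggggaac
*Car14* (chr3:95900300-95900326, exon 4, reverse strand): gcccagctcCACctgCACtggggtcag
*Car10* (chr11:93490597-93490623, exon 4, forward strand): gaagaaatcCGGctaCACtttgggagt
The codon of the last histidine lies near an exon junction and is shown from the spliced transcripts of the most abundant catalytic member and of *Car10*.
*Car2*, last position: gctgcagagcttCACttggttcactgg
*Car10*, last position: tccggggaggtaCAActcatccactat
*Car2*, *Car4*, *Car12* and *Car14* encode histidine at 3 of 3 positions. *Car10*, a carbonic anhydrase-related protein that binds neurexins and has no known catalysis, encodes it at 1 of 3.

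The libraries differed in ways that touch every comparison. Total counts were 36085737 to 46481382 in saline and 13574949 to 19834366 in microbead libraries, and mitochondrially encoded genes took 3.19 to 3.57% of counts in saline and 8.90 to 10.6% in microbead libraries. The column titles run in a single numbered series, but the library names in the sample descriptions have one prefix in all saline and another in all microbead libraries. The labels do not say what the prefix stands for, and prefix and injection cannot be told apart here. The rod markers, which define retina, were abundant in every library, with a summed level of 60060 to 90864 CPM (counts per 1000000 of a library size scaled by the trimmed mean of M values) in the 6 libraries. Saline 1 stood apart in its ganglion cell markers, which summed to 380 CPM against 944 to 1406 CPM in the other libraries. Saline 3 had the highest sum of pigment epithelium markers, 271 CPM, and saline 1 the lowest, 17.0 CPM. In bulk retina, fewer cells of a type and less RNA per cell cannot be told apart.

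The comparison of microbead with saline retina asked which of these genes changed under raised pressure. Of the 8, *Aqp1* and *Aqp11* were lower in microbead retina at an adjusted p under 0.05 by edgeR's quasi-likelihood test, and 0 were higher. DESeq2 and limma-voom called the same 2 lower and 0 higher, and at an unadjusted p under 0.05 edgeR also gave 2 lower and 0 higher. That threshold is loose in this table, where *Aqp4*, at an unadjusted p of 0.0588 by edgeR, ranked 5941 among 17707 genes tested. Counts at an unadjusted p are given here and below as a description. Over all genes tested, edgeR called 12.8%, with 6.31% lower and 6.46% higher, DESeq2 called 17.9% and limma-voom 12.5%. The median log2 fold change was -0.38 over the 8 genes and -0.03 over all genes tested. The groups did not overlap in CPM for 2 of the 8 genes, against 37.8% of all genes tested. None of the listed carbonic anhydrases passed the test in either direction.

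**Figure D1:**
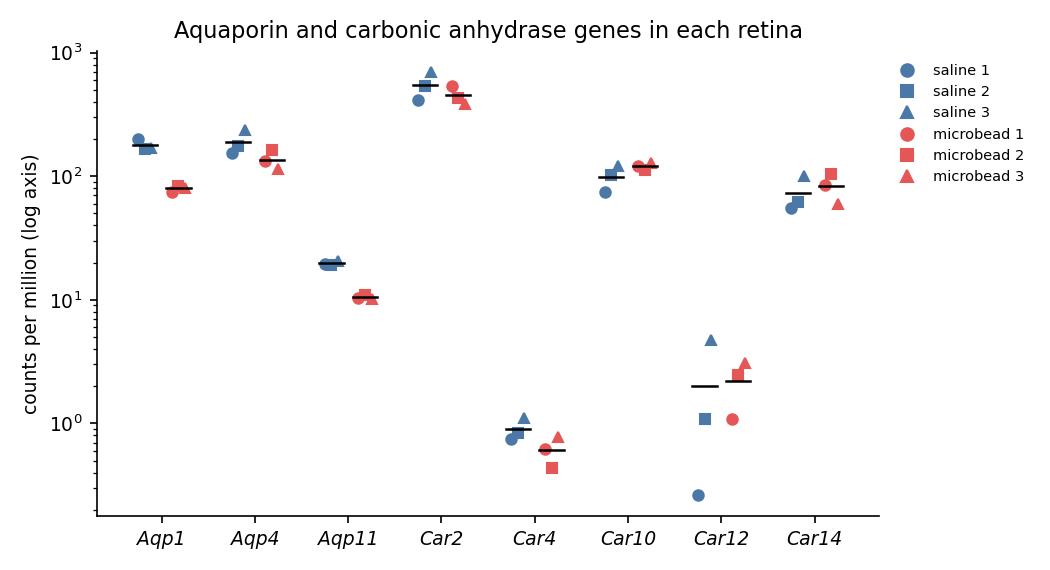
CPM of each of the 8 genes (vertical log axis) in the 3 saline (blue) and 3 microbead (red) libraries, with the marker shape giving the replicate and a black line the group mean. For *Aqp1* and *Aqp11* every microbead library lies below every saline library.

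*Aqp1* (ENSMUSG00000004655.5, chromosome 6, 55336432 to 55348555, forward strand, 4 exons with 807 coding bases) showed the clearest difference of the 8. It stood at 199, 167 and 170.3 CPM in saline 1, 2 and 3 and at 74.4, 84.0 and 80.9 CPM in microbead 1, 2 and 3. Every microbead library was below every saline library, and the lowest saline value was still well above the highest microbead value. The mean fell from 179 ± 17.4 CPM (SD, n = 3) to 79.8 ± 4.91 CPM (SD, n = 3). This was 2.24-fold lower, a log2 fold change of -1.17 (SE 0.16, 95% interval -1.53 to -0.80, adjusted p = 0.00894 by edgeR). With any 1 library left out, saline 1 and saline 3 included, the log2 fold change of *Aqp1* lay between -1.21 and -1.09. Without microbead 3 the call was lost (adjusted p = 0.0599), although the whole table then held 46 calls in place of 2261.

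*Aqp11* (ENSMUSG00000042797.9, chromosome 7, 97724006 to 97738289, reverse strand, 3 exons with 813 coding bases) moved in the same direction from a lower level. It stood at 19.5, 19.2 and 20.7 CPM in saline and at 10.4, 11.0 and 10.1 CPM in microbead libraries, with little spread within either group. The groups again did not overlap. The mean fell from 19.8 ± 0.763 CPM to 10.5 ± 0.431 CPM (SD, n = 3 each), 1.88-fold lower, with a log2 fold change of -0.91 (SE 0.19, 95% interval -1.33 to -0.50, adjusted p = 0.0194 by edgeR). The call was lost without saline 2 (adjusted p = 0.0790), without microbead 2 (0.0523) and without microbead 3 (0.0875), while the log2 fold change stayed between -0.94 and -0.88.

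The promoters of this pair are shown because both genes fell. Each line gives the 250 bases before the start site (RefSeq, GRCm38.p6), 5′ to 3′ along the gene's strand, with capitals for a match to any of the motifs searched.
*Aqp1* (chr6:55336049-55336298, forward strand): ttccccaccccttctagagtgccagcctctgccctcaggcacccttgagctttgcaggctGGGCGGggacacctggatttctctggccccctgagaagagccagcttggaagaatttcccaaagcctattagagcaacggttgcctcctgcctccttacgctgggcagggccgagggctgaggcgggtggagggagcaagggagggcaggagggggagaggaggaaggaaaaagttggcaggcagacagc
*Aqp11* (chr7:97738248-97738497, reverse strand): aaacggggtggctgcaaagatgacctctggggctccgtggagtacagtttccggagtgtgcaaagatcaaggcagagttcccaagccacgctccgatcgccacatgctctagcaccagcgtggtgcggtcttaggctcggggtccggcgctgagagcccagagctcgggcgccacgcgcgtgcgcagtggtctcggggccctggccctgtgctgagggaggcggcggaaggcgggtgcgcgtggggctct
The motifs, searched on both strands, were TAATCC (the core bound by the photoreceptor factor CRX), TATAAA (the TATA box), TGGAAA (the core of the tonicity element), CCAAT and GGGCGG (the GC box). *Aqp1* held 1 GC box, 190 bases before the start, and *Aqp11* held none of the 5 motifs. Of 32851 mouse promoter windows of the same length, 6.25% held TAATCC, 12.4% TATAAA, 18.6% TGGAAA, 33.8% CCAAT and 32.7% GGGCGG. No motif contains another, and a match is a description of the sequence alone.

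*Aqp4*, the main water channel of Müller glia, stood at 153, 175 and 235 CPM in saline and at 133, 162 and 114 CPM in microbead libraries. Microbead 2 lay above saline 1, so the groups overlapped. The mean was 187 ± 42.6 CPM in saline and 136 ± 24.2 CPM in microbead retina (SD, n = 3 each). The log2 fold change of -0.46 did not pass the test (SE 0.21, adjusted p = 0.175 by edgeR), and its 95% interval ran from -0.94 to 0.021, which leaves room for a fall close to that of *Aqp11*. It was -0.59 without saline 1 and -0.27 without saline 3.

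Among the 3 water channels, *Aqp1* made up more than the other members together when levels were taken per kilobase of all exons. Its share was 74.0, 67.9 and 61.9% in saline and 55.8, 54.1 and 61.4% in microbead libraries. The lowest saline share and the highest microbead share were 61.9 and 61.4%, so the groups came close without overlapping. Per kilobase of the longest coding transcript, the *Aqp1* share was 55.5 to 68.1% in saline and 49.3, 47.7 and 54.9% in microbead libraries, and *Aqp4* then exceeded *Aqp1* in microbead 2. These shares sum to a whole within each library and share their denominators, and they are given as a description.

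*Car2*, the cytosolic carbonic anhydrase of Müller glia and the most abundant of the family here, stood at 415, 539 and 698 CPM in saline and at 539, 427 and 384 CPM in microbead libraries. The highest microbead library was level with the middle saline library, and the spread within saline alone covered most of the range. The gene (ENSMUSG00000027562.12, chromosome 3, 14886273 to 14900770, forward strand, 7 exons) had a mean of 551 ± 142 CPM in saline and 449.9 ± 79.8 CPM in microbead retina (SD, n = 3 each). The log2 fold change was -0.29 (SE 0.23, 95% interval -0.80 to 0.22, adjusted p = 0.416 by edgeR). It was -0.46 without saline 1 and -0.087 without saline 3.

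*Car14* is a membrane-bound carbonic anhydrase with its catalytic side outside the cell, known from Müller glia and the pigment epithelium. It stood at 54.9, 62.1 and 101 CPM in saline and at 85.1, 104 and 59.2 CPM in microbead libraries. The groups covered almost the same range. The mean was 72.6 ± 24.6 CPM in saline and 82.6 ± 22.3 CPM in microbead retina (SD, n = 3 each), a log2 fold change of 0.19 (SE 0.27, 95% interval -0.43 to 0.80, adjusted p = 0.680 by edgeR), and it ran from 0.0064 without microbead 2 to 0.50 without saline 3. The gene (ENSMUSG00000038526.14, chromosome 3, 95897768 to 95904691, reverse strand, 11 exons) shares 445 exon bases with *Aph1a*, a gene of the gamma-secretase complex on the opposite strand. With reverse complements counted as matches, 13.7% of the 100-base stretches of *Car14* transcripts match those of *Aph1a*, a measure not separate from this overlap. *Aph1a* was lower in microbead retina, 28.2 ± 2.62 against 17.3 ± 1.24 CPM (SD, n = 3 each; log2 fold change -0.70, SE 0.18, adjusted p = 0.0345 by edgeR, and 0.0561 to 0.106 with any 1 library left out). The library kit kept strand, but the strand setting of the counting was not given in the sources used here, so the part of *Aph1a* reads in *Car14* was not tested.

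**Figure D2:**
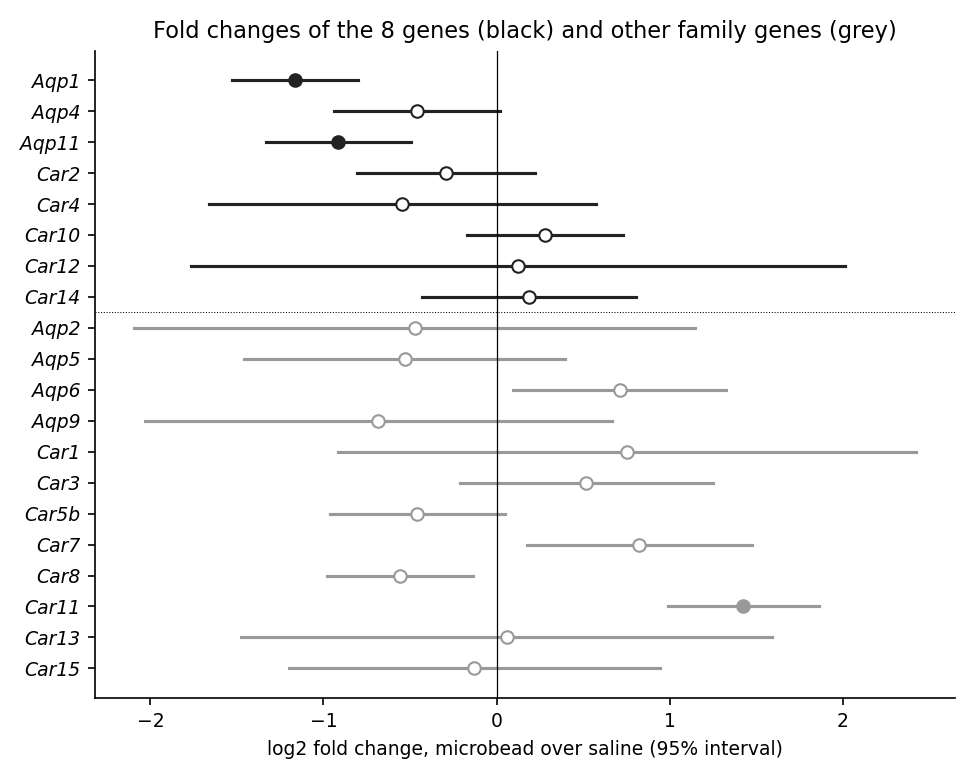
Log2 fold change of microbead against saline retina (horizontal axis) for the 8 genes (black) and the 12 other family genes tested (grey), with the 95% interval as a bar and filled points for an adjusted p under 0.05 by edgeR. The intervals of *Aqp1* (-1.53 to -0.80) and *Aqp11* (-1.33 to -0.50) lie wholly below 0, whereas those of the other 6 black genes span it.

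*Car4*, which is anchored to the outer face of the membrane and is known from the capillaries behind the retina, was near the lower end of what could be counted. It had 28, 40 and 39 reads in saline and 12, 6 and 12 reads in microbead libraries, or 0.744, 0.830 and 1.11 CPM against 0.618, 0.433 and 0.780 CPM. Microbead 3 lay between saline 1 and saline 2, so the groups overlapped. The log2 fold change of *Car4* (ENSMUSG00000000805.18, chromosome 11, 84957786 to 84966044, forward strand, 8 exons) was -0.54 (SE 0.50, 95% interval -1.66 to 0.57, adjusted p = 0.490 by edgeR), so that neither a fall of more than 2-fold nor a rise was distinguishable at this depth.

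*Car12*, a transmembrane carbonic anhydrase of the ciliary epithelium, varied more among saline libraries than between the groups. It stood at 0.266, 1.08 and 4.71 CPM in saline, from 10, 52 and 165 reads, and at 1.08, 2.46 and 3.05 CPM in microbead libraries. The highest saline library was 17.7-fold above the lowest, against 2.83-fold in microbead libraries. The log2 fold change of *Car12* (ENSMUSG00000032373.15, chromosome 9, 66713686 to 66766845, forward strand, 11 exons) was 0.12 (SE 0.84, 95% interval -1.77 to 2.01, adjusted p = 0.940 by edgeR). It took values from -0.40 without saline 1 to 1.67 without saline 3, so its direction rested on single libraries.

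The order of *Car12* in saline libraries was that of the pigment epithelium markers. The summed level of those 12 genes was 17.0, 65.2 and 271 CPM in saline 1, 2 and 3 and 156, 129 and 145 CPM in microbead 1, 2 and 3 (two-sided exact permutation p = 0.9). Among microbead libraries the orders differed, and microbead 1 had the highest sum and the lowest *Car12* (1.08 CPM). Of the 12, 0 were called in either direction by edgeR, with 1 higher and 0 lower at an unadjusted p under 0.05, and *Mlana*, a melanosome gene, was at 0 in saline 1. Their part in the level of *Car12* was not tested.

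*Car10*, the member without catalysis, is made by neurons. It stood at 74.2, 102 and 121 CPM in saline and at 120.3, 113 and 128 CPM in microbead libraries. The microbead libraries lay close together, and saline 3 lay among them while saline 1 was the lowest. The mean was 99.1 ± 23.6 CPM in saline and 120.3 ± 7.40 CPM in microbead retina (SD, n = 3 each), a log2 fold change of 0.28 (SE 0.20, 95% interval -0.17 to 0.73, adjusted p = 0.375 by edgeR). The gene (ENSMUSG00000056158.14, chromosome 11, 93098028 to 93601749, forward strand, 9 exons) had a log2 fold change of 0.11 without saline 1 and of 0.45 without saline 3.

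The ganglion cell markers, 11 genes in all, summed to 380, 1098 and 1406 CPM in saline 1, 2 and 3 and to 1293, 944 and 1204 CPM in microbead 1, 2 and 3 (two-sided exact permutation p = 0.8). Saline 1 was the lowest of the 6 libraries in this sum and in *Car10*. Of the 11, 0 were called by edgeR, with 2 higher and 0 lower at an unadjusted p under 0.05. None of the 11 was at 0 in any library, and their part in the level of *Car10* was not tested.

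**Figure D3:**
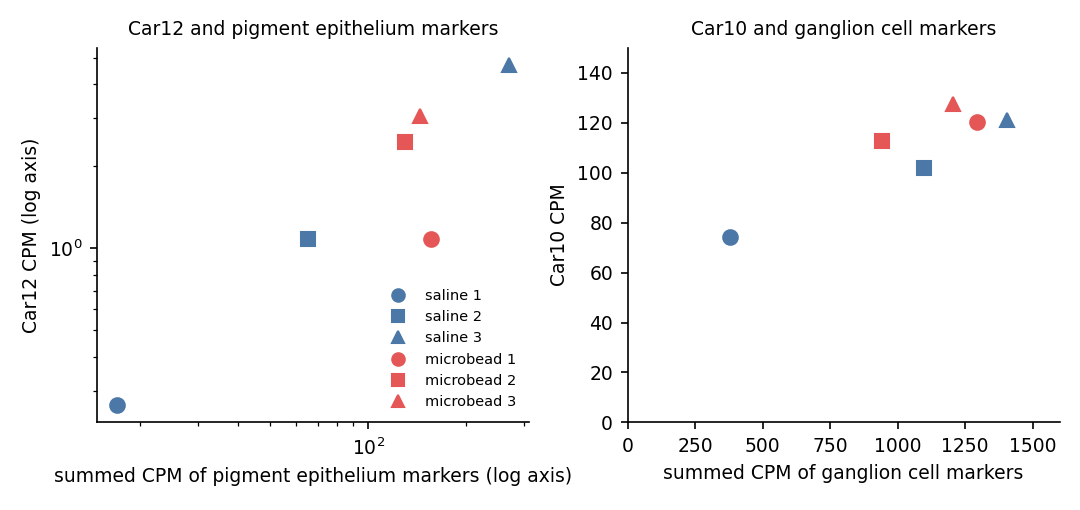
*Car12* against the summed CPM of 12 pigment epithelium markers (left, log axes) and *Car10* against the summed CPM of 11 ganglion cell markers (right, linear axes), with 1 point for each of the 6 libraries. Saline 1 is lowest on both axes of both panels, and saline 3 is highest on both axes of the left panel.

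Members known from Müller glia were then set against other genes of the same cells. The 12 Müller glia markers summed to 7827, 7249 and 11029 CPM in saline and to 6991, 6885 and 5630 CPM in microbead libraries, which did not overlap (two-sided exact permutation p = 0.1, the smallest that 3 against 3 libraries allow). Of the 12, 4 were called lower by edgeR, *Vim*, *Sox9*, *Dkk3* and *Crym*, and 0 higher, against 6.31% and 6.46% of all genes tested. Of all genes tested, 37.8% did not overlap between the groups.

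*Aqp4* was 1.95, 2.41 and 2.13% of the marker sum in saline and 1.90, 2.35 and 2.03% in microbead libraries. The difference of mean log2 ratios was -0.047 and the groups overlapped almost fully (two-sided exact permutation p = 0.7). *Car2* was 5.30, 7.44 and 6.33% of the sum in saline and 7.70, 6.20 and 6.82% in microbead libraries, a difference of 0.13 with overlap (two-sided exact permutation p = 0.5).

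*Car14* was 0.701, 0.857 and 0.913% of the marker sum in saline and 1.22, 1.50 and 1.05% in microbead libraries. Every microbead library was above every saline library on this ratio, which was not so for the CPM of *Car14* itself. The difference of mean log2 ratios was 0.60 (two-sided exact permutation p = 0.1, the smallest possible, and 0.3 after Benjamini-Hochberg adjustment over the 3 ratios compared). A p under 0.05 could not be reached with these numbers.

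**Figure D4:**
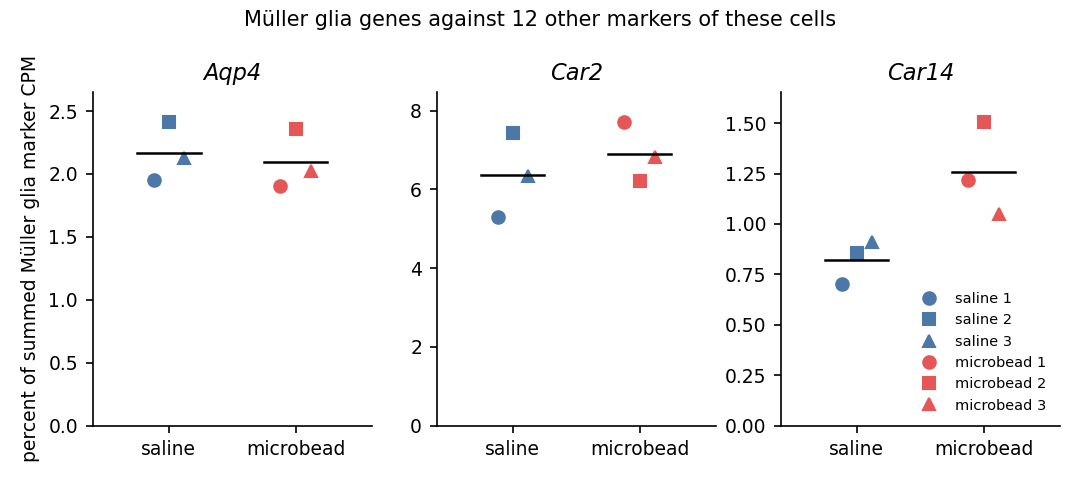
*Aqp4*, *Car2* and *Car14* as a percent of the summed CPM of 12 other Müller glia markers (vertical axis, from 0) in each library, with the mean of the percents per group as a line. The *Car14* panel is the one in which the 3 microbead libraries (1.05 to 1.50%) lie above the 3 saline libraries (0.701 to 0.913%).

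Cells other than glia and neurons were checked through their markers as well. The 10 endothelial markers summed to 491, 513 and 704 CPM in saline and to 341, 464 and 307 CPM in microbead libraries, which did not overlap (two-sided exact permutation p = 0.1, the smallest possible). Of these, 4 were called lower by edgeR, *Cldn5*, *Esam*, *Flt1* and *Tie1*, and 0 higher, against 6.31% and 6.46% of all genes tested. Of all genes tested, 37.8% did not overlap between the groups. *Aqp1* was lower in the microbead libraries too, and the part of endothelial RNA in its difference was not tested.

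The summed markers of the cells in which retinal *Aqp1* is known overlapped between the groups, although single markers were called. Rod markers summed to 68191 to 90864 CPM in saline and 60060 to 75104 CPM in microbead libraries (two-sided exact permutation p = 0.6). Of 10 rod markers, edgeR called 1 lower, *Nrl* (log2 fold change -0.97, adjusted p = 0.0192), and 1 higher, *Pdc* (1.01, adjusted p = 0.0362). Over all genes tested, 12.8% were called in either direction. By fold change, 8 of the 10 rod markers were lower and 2 higher, with 3 lower and 1 higher at an unadjusted p under 0.05 by edgeR. The groups did not overlap for 3 lower and 1 higher rod markers, against 37.8% of all genes tested. Amacrine markers summed to 943 to 1768 CPM in saline and 1062 to 1199 CPM in microbead libraries (two-sided exact permutation p = 0.4). Cone markers (1117 to 1367 against 1251 to 1535 CPM, exact permutation p = 0.4) and astrocyte markers (66.8 to 97.7 against 82.6 to 92.3 CPM, exact permutation p = 1) overlapped too. Of the 7 amacrine markers edgeR called 0, with 1 lower and 0 higher at an unadjusted p under 0.05. It called the cone marker *Arr3* higher (1.44, adjusted p = 0.0126), 1 of 8, and the astrocyte marker *Aldh1l1* lower (-1.23, adjusted p = 0.0307), 1 of 6. These marker genes were named after their values were seen, and the part of any of these cells in the difference of *Aqp1* was not tested. Lens markers, of which 8 of 10 were in the table, summed to at most 4.41 CPM, and red blood cell markers, 5 of 6 in the table, to at most 41.6 CPM in any library.

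Levels were compared between genes only as CPM per kilobase of exon. In saline the order was *Car2* (227 ± 58.6 CPM per kilobase, SD, n = 3), *Aqp1* (68.1 ± 6.64), *Aqp4* (30.1 ± 6.83), *Car14* (28.5 ± 9.68), *Car10* (15.6 ± 3.71), *Aqp11* (2.10 ± 0.081), *Car4* (0.455 ± 0.098) and *Car12* (0.266 ± 0.311). Neighbours in this order whose libraries overlapped were *Aqp4* with *Car14* and *Car4* with *Car12*.

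In microbead retina *Car2* was again the most abundant, at 186 ± 33.0 CPM per kilobase (SD, n = 3). It was followed by *Car14* (32.5 ± 8.76), *Aqp1* (30.4 ± 1.87), *Aqp4* (21.9 ± 3.88), *Car10* (18.9 ± 1.16), *Aqp11* (1.12 ± 0.046), *Car4* (0.310 ± 0.088) and *Car12* (0.289 ± 0.133). Overlapping neighbours were *Car14* with *Aqp1*, *Aqp4* with *Car10*, and *Car4* with *Car12*. *Aqp1* stood apart from both neighbours in saline and overlapped *Car14* in microbead retina. With the length of the longest coding transcript in place of all exons, *Aqp4* and *Car14* changed places in saline, and in microbead retina *Car10* moved from place 5 to place 3.

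**Figure D5:**
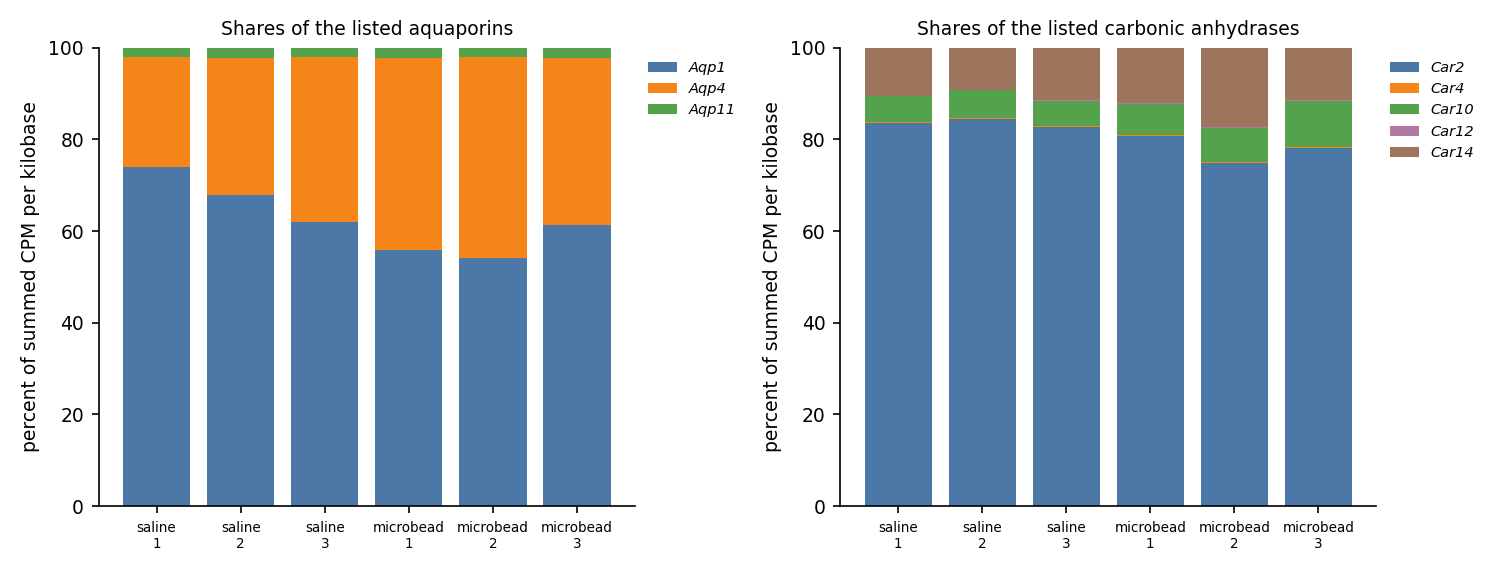
Share of each listed aquaporin (left) and carbonic anhydrase (right) in the summed CPM per kilobase of its family (vertical axis, percent) in each of the 6 libraries. Per kilobase of all exons, *Aqp1* takes 54.1 to 74.0% of the water channels and *Car2* 74.9 to 84.4% of the carbonic anhydrases, whereas per kilobase of the longest coding transcript the lowest shares are 47.7 and 71.4%.

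*Car2* made up 83.6, 84.4 and 82.8% of the level of the listed carbonic anhydrases in saline and 80.8, 74.9 and 78.2% in microbead libraries. Every microbead share was below every saline share, although the CPM of *Car2* overlapped between the groups. The remainder was mostly *Car14* and *Car10*. As for the water channels, these shares are a description.

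Other members of both families were mostly low. Of 9 further water channels, 4 were tested, and edgeR, DESeq2 and limma-voom called 0 of them, with 1 higher at an unadjusted p under 0.05 by edgeR. The median log2 fold change of the 4 was -0.50, against -0.03 over all genes. *Mip*, the water channel of lens fibres, was at 5.54 CPM in saline 3 and at most 0.106 CPM elsewhere, a gene not tested and named after its values were seen. The largest differences by the naming rule were those of *Aqp6*, an intracellular anion-permeable aquaporin (0.71, SE 0.27, adjusted p = 0.111 by edgeR), and *Aqp5*, a channel of secretory epithelia (-0.53, adjusted p = 0.414).

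Of 11 further carbonic anhydrases, 8 were tested, and 1 was called higher and 0 lower, with a median log2 fold change of 0.29. At an unadjusted p under 0.05 edgeR gave 2 higher and 1 lower. The groups did not overlap for 2 higher and 2 lower genes, against 37.8% of all genes tested. The gene called was *Car11*, which stood at 26.7, 27.8 and 27.2 CPM in saline and at 76.2, 56.4 and 87.1 CPM in microbead libraries. The groups did not overlap, and the log2 fold change was 1.43 (SE 0.19, adjusted p = 0.00838 by edgeR, and 0.0599 without microbead 3). *Car7*, a cytosolic form of neurons, had a log2 fold change of 0.82 (adjusted p = 0.0868 by edgeR) and was called by DESeq2, which called 2 of the 8 higher. Over all genes tested, edgeR called 12.8% and DESeq2 17.9% in either direction. *Car8*, named after its values were seen, was lower in every microbead library than in any saline library. It stood at 87.4, 97.6 and 131 CPM in saline and at 70.8, 75.7 and 67.9 CPM in microbead libraries. Its log2 fold change was -0.56 (SE 0.19, adjusted p = 0.0790 by edgeR).

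Bicarbonate made or consumed by carbonic anhydrases crosses membranes through Slc4 transporters. Of 10 Slc4 genes, whose transport of bicarbonate was not examined one by one, 8 were tested. EdgeR, DESeq2 and limma-voom called 0 of them, with 2 higher and 1 lower at an unadjusted p under 0.05 by edgeR. Their median log2 fold change was -0.37. The largest differences were 1.39 for *Slc4a11*, a transporter of corneal endothelium (adjusted p = 0.101 by edgeR), and -0.57 for *Slc4a3*, an anion exchanger of neurons and Müller glia (adjusted p = 0.116).

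Protons leave cells through exchangers of the Slc9 family and together with lactate through Slc16 transporters. The list of 14 genes also held *Bsg* and *Emb*, which belong to neither family. Of the 14, 13 were tested, of which edgeR called 2 lower and 0 higher, with a median log2 fold change of -0.32. DESeq2 called 3 lower and 1 higher, the latter being *Slc9a5*, a proton exchanger of neurons named after its values were seen (0.85, adjusted p = 0.0594 by edgeR). Over all genes tested, edgeR called 12.8% and DESeq2 17.9% in either direction. *Slc16a3*, a lactate exporter, fell from 78.3, 57.8 and 71.3 CPM in saline to 29.8, 30.8 and 41.0 CPM in microbead libraries (log2 fold change -1.03, SE 0.20, adjusted p = 0.0170 by edgeR). *Slc16a1*, a lactate carrier chosen for naming after its values were seen, fell from 256, 222 and 251 to 178, 147 and 124 CPM (log2 fold change -0.70, SE 0.18, adjusted p = 0.0390 by edgeR). Neither gene overlapped between the groups, which held for 37.8% of all genes tested. With each library left out in turn, *Slc16a3* kept its call in 3 of 6 fits and *Slc16a1* in 1 of 6. *Slc9a7*, an exchanger of the trans-Golgi network, had a log2 fold change of -1.80 and missed the threshold (adjusted p = 0.0549 by edgeR), whereas DESeq2 and limma-voom called it lower.

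Genes with the pattern most like that of each member were found by Pearson's correlation of log2 CPM over the 6 libraries, among 10350 or 10351 genes with a mean of at least 10 CPM. The 6 points share their depth and their groups, so the values are a description. *Aqp1* was most like *Yy1* (r = 0.997), *Tyw1* (0.997) and *Mocs3* (0.995), and *Aqp11* most like *Lemd3* (0.999), *Entpd5* (0.999) and *Ssr1* (0.997). *Aqp4* was most like *Lin7a* (0.994), *Scaper* (0.988) and *Necap1* (0.987).

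*Car2* was most like *Rit2* (0.994), *Pip5k1b* (0.994) and *Stx7* (0.993), and *Car14* most like *Uqcrc2* (0.976), *Eps15* (0.971) and *Ahi1* (0.955). *Car10* was most like *Thy1* (0.997), one of the ganglion cell markers, followed by *Efnb3* (0.996) and *Cygb* (0.996). *Car12* was most like *Rad23b* (0.977), *Cyb5r3* (0.976) and *Susd2* (0.969), and *Car4* most like *Mthfd1* (0.990), *Fbll1* (0.986) and *Gipc1* (0.985). Between members, *Aqp1* and *Aqp11* had r = 0.983, and *Car10* and *Car12*, which were both lowest in saline 1, had r = 0.873.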

How the data were processed

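Poly(A)-enriched, stranded libraries of whole retina were sequenced as 100-bp paired-end reads. Per the submitters' processing notes and methods, the authors aligned reads to GRCm38.p5 with STAR 2.5.3a, counted them per GENCODE vM12 gene with featureCounts 1.15.2, and deposited raw counts. How multiply mapped reads were treated was not given in the sources used here. The same table holds the authors' DESeq2 comparison (mean, log2 fold change, fold change, p-value, adjusted p-value and a call), which was not used. Per-sample columns left unused numbered 0.

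Genes were kept by filterByExpr at a minimum count of 10 and a total of at least 15, scaled by TMM and tested two-sided with edgeR 4.0.16 (glmQLFit, glmQLFTest; R 4.3.3). P-values were adjusted by Benjamini-Hochberg over all genes tested, with 0.05 as the threshold. CPM used TMM-scaled library sizes. Intervals of log2 fold changes came from the standard error and total degrees of freedom. Sums and log2 ratios were compared by exact permutation of libraries. Exon lengths and overlaps came from GENCODE vM21, which covered 99.6% of genes tested, and promoters from RefSeq. The tests across genes were tested on simulated data.

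The 8 genes, the pathway lists and the marker lists were chosen with earlier results of these data known. Beside the 8, the genes named are the 2 of each pathway list with the largest absolute log2 fold change at a mean of at least 1 CPM, and the 3 most like each member. The results of 1 pathway list are not reported here. Alternatives were RLE and upper-quartile scaling, DESeq2 1.42.0, voom of limma 3.58.1, TMM leaving out the top 100 genes, dropping the filter, requiring 10 counts in each library, counts thinned to equal depth, a replicate block, a GC content and length offset with and without the block, a threshold of 0.01, and each library left out. A count of 3 corresponded to 0.0622 to 0.217 CPM, which covers counting error only. Between libraries of a group the chi-square per degree of freedom was at least 20.1, above that of sampling noise alone. No library was therefore a copy of another, but this does not show that they came from separate animals.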

Additional observations from a re-analysis of the deposited data

How the results depend on the processing

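*Aqp1* was called lower in all 12 alternatives on all 6 libraries that were run (log2 fold change -1.31 to -1.12, adjusted p 8.37e-08 to 0.0411) and in 5 of 6 fits with 1 library left out. *Aqp11* was called in 9 of the 12 and in 3 of the 6. The number of the 8 genes called lower was 2, and it was 1 with the replicate block, 1 with the GC content and length offset plus the replicate block, and 1 at a threshold of 0.01. With 1 library left out it ran from 0 to 2. The same-number correlations were -0.04, 0.14 and 0.01, and those between libraries of different number ran from -0.20 to 0.14. They gave no sign that the numbers pair the libraries, but cannot show whether any libraries were paired. The adjusted p of *Aqp11* under the replicate block was 0.0512. Calls over the whole table were 2261, against 3720 without the filter, 3621 by DESeq2, 905 with the block, 985 with the offset and block, and 87 at 0.01, with 46 to 2621 when 1 library was left out. The sign of *Car12* turned to -0.40 without saline 1, -0.19 without saline 2 and -0.21 without microbead 3, and its range over libraries left out was -0.40 to 1.67. The difference of the *Aqp4* ratio turned to 0.029 without the most abundant Müller glia marker, and ran from -0.13 to 0.033 with libraries left out, at 0.033 without saline 2 and 0.019 without microbead 1. With the longest coding transcript as length, 3 of 8 genes kept their place in the microbead order and 6 of 8 in saline. *Car4* fell out where 10 counts were required of each library. The causes of these changes were not tested. Depth limits *Car4* and *Car12*, which had as few as 6 and 10 reads in a library.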
